A study of Rattus norvegicus with 2 samples.

Results

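The proteasome is the large protease that degrades ubiquitin-tagged proteins in every nucleated cell. Its barrel-shaped core has outer rings of alpha subunits (Psma genes), which gate the entrance, and inner rings of beta subunits (Psmb genes), some of which cut peptide bonds. A cap on the core recognises the tagged protein, unfolds it with a ring of ATPases (Psmc genes) and removes the ubiquitin chain with the help of non-ATPase subunits (Psmd genes). Activators (Psme genes) can bind the core in place of the cap. In immune cells, and in other cells exposed to interferon-gamma, the catalytic subunits Psmb5, Psmb6 and Psmb7 are replaced by Psmb8, Psmb9 and Psmb10, which makes the immunoproteasome, a form that favours peptides presented by class I molecules.

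The genes were those with a number-only NCBI gene ID whose symbol begins with Psm, a letter from a to e and a digit. The rule found 46 of 16484 number-only genes, in a table of 113011 features. Among them, 43 were subunit genes: 8 of the alpha ring, 7 standard beta, 3 immune beta, the thymus-specific Psmb11, 6 cap ATPases, 14 cap non-ATPases and 4 activators. The other 3 were Psmc3ip and Psme3ip1, which encode interacting proteins and no subunit, and the pseudogene Psma6-ps1.

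Urine RNA of Sprague Dawley rats was sequenced in 1 library labelled WT and 1 labelled UUO. UUO stands for unilateral ureteral obstruction, in which the right ureter was tied off. The WT library stands for sham-operated rats, which had the same surgery without ligation. All rats were 8 weeks old, and the urine was taken 2 weeks after surgery from the ureter through a catheter, leaving out the urine that had built up behind the ligature. How many rats gave urine to each library is not stated. In the table the 2 conditions carry the names UrRf and Urc. They were taken for UUO and WT, although neither is a sample title, and every direction below rests on that reading. With 1 library per group no difference has a replicate check, and the values describe these 2 libraries only.

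Levels are FPKM, fragment numbers scaled by the authors to transcript length and library size. A gene with 1 FPKM or more counts as detected, and a difference is UUO minus WT of log2(FPKM + 1), counted as 2-fold when it is 1 or more in size. From the steps in the FPKM values, 1 fragment on a transcript of 1000 bases was worth 0.543 FPKM in the WT and 0.497 in the UUO library. Intervals of FPKM below are exact Poisson intervals at 95%. Those of a fold are exact binomial intervals at 95% from the split of fragments between the libraries. Both are for a transcript of that assumed length, and cover counting error only. Urothelial Krt7 and Upk3a were detected in both libraries, as were the tubule genes Umod and Slc12a1, so the RNA carried markers of the urinary tract. The loci of marker genes were not checked against their RefSeq neighbours, and Aqp2 is listed on chromosome X. The paper describes centrifuging the urine before storage and again before RNA isolation, and which fraction was kept is not stated. How much of the RNA came from whole cells was not measured, so markers below name an origin of RNA and not counted cells. In bulk RNA, fewer cells of a type and less RNA per cell cannot be told apart.

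Standard subunit genes were mostly at lower FPKM in UUO than in WT urine as deposited. The 3 immune subunit genes were under the 2-fold limit set on log2(FPKM + 1), although Psmb8 was 2.11-fold higher in FPKM itself. The direction of the standard genes turned with 1 of the scalings tried. Of the 43 subunit genes, 40 reached 1 FPKM in either library. In UUO urine 25 of these were lower by 2-fold or more, 1 was higher and 14 were under the limit. Over the 9853 number-only genes that passed the same filter, 36.5% were lower by 2-fold and 25.7% were higher. Over all 28802 features that passed it, the shares were 25.5% and 49.2%. Among number-only genes detected in both libraries, which is the case for 39 subunit genes, the shares were 42.8% and 7.01%. The median difference of the 40 subunit genes was -1.16, against -0.51 for all number-only genes that passed and -0.81 for the 7218 number-only genes detected in both. Of all 46 genes found by the rule, 42 passed, with 25 lower, 2 higher and 15 under the limit. Psmc3ip was listed at 0 in WT and at 2.48 FPKM in UUO urine, Psme3ip1 was 16.7 and 15.2, and Psma6-ps1 was listed at 0 in both.

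Direction depended on how the libraries were scaled. The median of the subunit genes was -0.55 after rescaling to equal sums and -0.28 by the median ratio of genes, and it turned to 1.46 when both libraries were set to the same 75th percentile of their features above 0. Those features were unlike sets, since 54481 of all features were at 0 in WT alone and 2275 in UUO urine alone. On that scaling the median of number-only genes detected in both was itself 1.70. A rescaling multiplies the UUO values of subunit and number-only genes by the same factor. Apart from the effect of the added 1, the gap between their medians is therefore fixed in advance. Minus the median of number-only genes detected in both, the subunit median was -0.35 as deposited, -0.30 with equal sums, -0.28 by the median ratio and -0.24 at the 75th percentile. With the 75th percentile taken over features above 0 in either library, which puts UUO values lower instead of higher, it was -0.95.

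**Figure D1:**
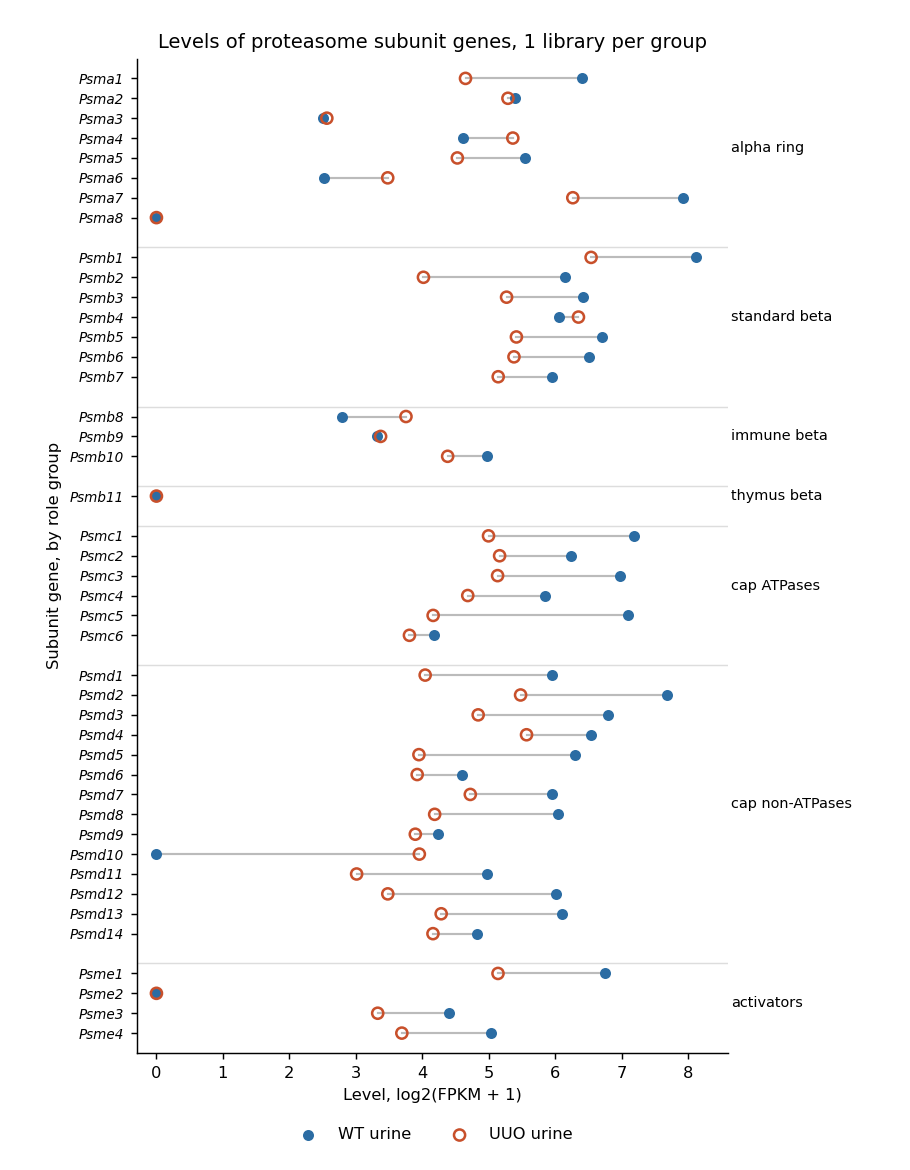
Level of each of the 43 subunit genes in WT urine (filled circles) and UUO urine (open circles) as log2(FPKM + 1), as deposited, by role group. Most cap and standard beta genes lie further left in UUO urine, Psmb8 and Psmb9 do not, and Psmd10 is listed at 0 in WT urine. On the 75th percentile scaling all UUO points above 0 would shift to the right.

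In the alpha ring, subunits that are built into the core in equal numbers differed among themselves. Psma7 had the highest level of the ring, with 241 FPKM in WT against 75.9 in UUO urine, 3.17-fold lower. Psma1 had the lowest difference of the ring at -1.76, with 84.0 in WT and 24.1 in UUO urine. Psma5 was 45.95 and 22.1. These 3 genes were the ones past 2-fold, 42.9% of the detected alpha genes, against 42.8% of number-only genes detected in both libraries. On the 75th percentile scaling Psma1 and Psma7 were instead higher in UUO urine.

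The other 4 detected alpha genes were under the 2-fold limit as deposited. Psma2 had 41.1 FPKM in WT against 38.1 in UUO urine, and Psma3 had 4.68 and 4.91. Psma4 was 23.5 in WT and 40.1 in UUO urine, 1.71-fold higher, with a counting interval of the fold from 1.18 to 2.56. Psma6 was 4.72 and 10.2, a difference of 0.96 although 2.15-fold in FPKM itself, and its fold interval of 0.886 to 5.08 holds 1. The median of the ring was -0.11, and it was above 0 at equal sums (0.51) and by the median ratio (0.77). At the locus of Psma3, the gene held all of the FPKM in WT but 44.1% in UUO urine, and entries other than named genes held the rest in UUO urine. Psma8, the germ-cell form of an alpha subunit, was listed at 0 in both libraries, as was Psmb11, the beta subunit of the thymus.

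Of the 7 standard beta genes, 5 were lower by 2-fold or more in UUO urine as deposited, with a group median of -1.15. Psmb1, a structural subunit of the ring, was the most abundant subunit gene in both libraries, with 278 FPKM in WT against 92.1 in UUO urine. Psmb2 had the lowest difference of the group at -2.13, with 69.7 and 15.2. Psmb3 was 84.4 and 37.5. At the 75th percentile scaling the group median was 1.48, so this direction also rests on the scaling.

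Psmb4 stood apart from its ring. It had 65.5 FPKM in WT against 80.6 in UUO urine, a difference of 0.29, and the fold interval of 0.963 to 1.56 holds 1. Psmb4 and Psmd4 lie near each other on chromosome 2 (215536871 to 215539663 and 215692984 to 215702247, build rn5), and Psmd4 was 92.4 in WT and 46.5 in UUO urine.

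The catalytic pairs were compared within each library, because a ratio between genes of 1 library is not moved by the scaling of that library. The values are RNA levels, and the make-up of the core itself was not measured. Psmb5, the chymotrypsin-like subunit (chromosome 15, 37143057 to 37147124), had 103 FPKM (interval 89.0 to 119) in WT against 41.7 (33.3 to 51.7) in UUO urine. Its immune counterpart Psmb8 (chromosome 20, 6070160 to 6073320) had 5.92 (2.98 to 10.7) in WT and 12.5 (8.04 to 18.3) in UUO urine. Psmb5 was thus 17.4-fold above Psmb8 in WT and 3.34-fold above it in UUO urine. On the log2 scale the gap between the pair differed by 2.25 between the libraries.

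Psmb6, the caspase-like subunit, had 89.99 FPKM in WT against 40.6 in UUO urine, and its counterpart Psmb9 (chromosome 20, 6052971 to 6058398) had 9.03 and 9.36. The gap of this pair differed by 1.18 on the log2 scale. The listed locus of Psmb6 (chromosome 2, 115773761 to 115774561) spans only 801 bases. None of the 10 genes that neighbour Psmb6 in RefSeq lies on that chromosome of the table, so the values of Psmb6 are uncertain. Set against the mean of Psmb5 and Psmb7 instead, Psmb9 differed by 1.10.

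Psmb7, the trypsin-like subunit, had 61.0 FPKM in WT against 34.3 in UUO urine, and its counterpart Psmb10 (chromosome 19, 48776511 to 48779116) had 30.4 and 19.8. The gap of this pair differed by only 0.22. Psmb10 was the most abundant immune subunit gene in both libraries. The shift was therefore uneven, large for Psmb8 against Psmb5 and small for Psmb10 against Psmb7.

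Summed over the 3 pairs, the immune genes had 45.3 FPKM in WT against 41.7 in UUO urine, while the standard genes had 254 and 117. They held 15.1% of the catalytic FPKM in WT and 26.3% in UUO urine, and 18.1% and 29.8% without Psmb6 and Psmb9. The numbers behind Psmb8 and Psmb9 are small. At 1000 bases, Psmb8 stands for 11 fragments in WT and 25 in UUO urine. Its own fold interval of 0.988 to 4.69 holds 1, as does that of Psmb9 (0.504 to 2.096). Psmb10 lay in the other direction, 0.653-fold as deposited, with an interval of 0.425 to 0.999.

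**Figure D2:**
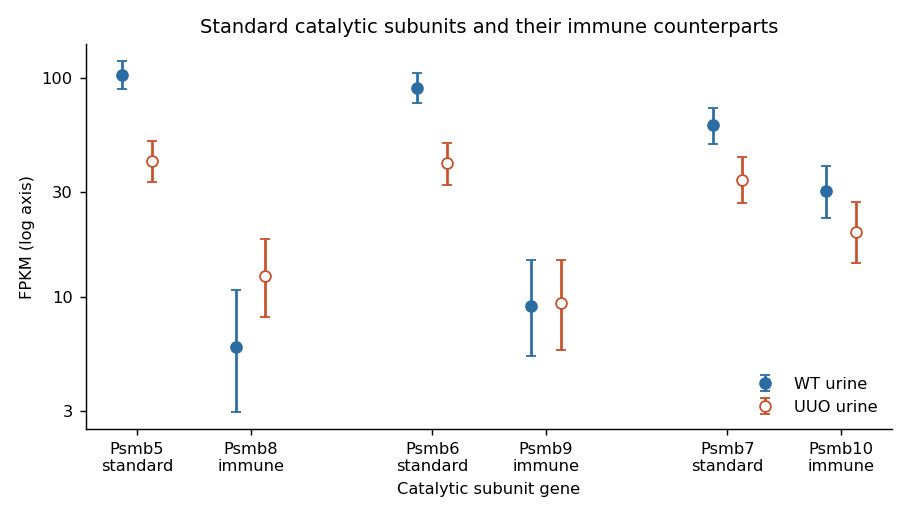
FPKM on a log axis of the 3 standard catalytic genes and their immune counterparts in WT (filled) and UUO urine (open), as deposited, with exact Poisson intervals at 95% for an assumed transcript of 1000 bases. Psmb5 is at 103 and 41.7 while Psmb8 is at 5.92 and 12.5, so the gap is narrower in UUO urine, whatever factor scales a library.

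Leukocyte markers were mostly listed at 0 in WT urine. Of the 13 leukocyte markers in the table, 11 reached 1 FPKM in either library. Among these, 9 were higher by 2-fold in UUO urine and none was lower, but 8 of the 9 passed the filter through UUO urine alone, so they could only come out higher. A value of 0 in WT alone was common, with 4166 number-only genes against 182 at 0 in UUO urine alone. Over the 3 markers detected in both libraries, Lyz2, Cd14 and Cd74, the median difference was -0.11. The 13 summed to 79.6 FPKM in WT and 237 in UUO urine. Ptprc, Cd68, Tyrobp and S100a9 were among the 9 markers with no FPKM in WT but some in UUO urine, while Cd3e, the T-cell marker, was listed at 0 in both. Cd74 was 69.99 in WT and 64.8 in UUO urine. Their part in the ratio of the catalytic pairs was not tested.

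The upstream sequences of 4 beta genes are shown, chosen after their values and motif matches were seen. Psmb5 and Psmb8 are the pair with the widest difference, Psmb2 is the standard beta gene with the lowest difference, and Psmb10 is the most abundant immune gene. They are the 250 bases before the start of each gene, from RefSeq on the GRCr8 assembly, written 5′ to 3′ along the gene. Capitals mark matches on either strand to 1 motif each. For Psmb2 (chr5:144254808-144255057, plus strand) and Psmb5 (chr15:32047380-32047629, minus strand) the motif is the antioxidant response element TGACNNNGC, bound by Nfe2l1, the factor known to raise proteasome genes. For Psmb8 (chr20:4657032-4657281, minus strand) it is the gamma-activated site TTCNNNGAA, and for Psmb10 (chr19:50743293-50743542, minus strand) the interferon-stimulated response element, which has 2 matches.
Psmb2: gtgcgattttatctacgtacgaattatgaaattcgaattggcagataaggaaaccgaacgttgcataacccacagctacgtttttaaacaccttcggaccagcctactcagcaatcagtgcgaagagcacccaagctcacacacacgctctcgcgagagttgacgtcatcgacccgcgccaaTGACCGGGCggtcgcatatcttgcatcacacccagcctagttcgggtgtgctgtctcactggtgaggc
Psmb5: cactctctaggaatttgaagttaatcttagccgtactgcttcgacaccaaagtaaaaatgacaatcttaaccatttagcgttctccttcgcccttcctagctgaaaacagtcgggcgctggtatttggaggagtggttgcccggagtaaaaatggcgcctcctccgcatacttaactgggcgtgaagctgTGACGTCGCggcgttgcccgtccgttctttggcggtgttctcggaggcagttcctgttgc
Psmb8: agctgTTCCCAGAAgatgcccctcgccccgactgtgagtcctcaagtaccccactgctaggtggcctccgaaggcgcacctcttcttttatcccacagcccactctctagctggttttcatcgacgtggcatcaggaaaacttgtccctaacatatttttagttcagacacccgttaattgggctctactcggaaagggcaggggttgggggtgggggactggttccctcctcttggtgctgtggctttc
Psmb10: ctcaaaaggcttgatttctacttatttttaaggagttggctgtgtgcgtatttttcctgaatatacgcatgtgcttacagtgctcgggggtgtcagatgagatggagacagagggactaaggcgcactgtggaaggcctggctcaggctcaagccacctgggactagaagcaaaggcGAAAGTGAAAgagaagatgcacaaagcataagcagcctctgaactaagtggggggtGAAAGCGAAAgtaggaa

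Promoters were found for 38 of the 43 subunit genes. The antioxidant response element was present in 7 of them, Psma3, Psmb2, Psmb5, Psmb6, Psmd1, Psmd9 and Psme4, and in 10.2% of all 27457 promoters of the table over the same window. The interferon-stimulated element was in 5 (Psma4, Psmb3, Psmb10, Psmd7 and Psme2), against 3.29% of all promoters, and the gamma-activated site in 4 (Psmb8, Psmc6, Psmd3 and Psmd7), against 7.52%. The CCAAT box, the site of the factor NF-Y, was in 18, against 34.3% of all promoters, and the ETS site CCGGAAGT in 6, against 3.29%. Both strands were searched for each motif. No antioxidant response element lay in these windows of the 3 immune genes or the 6 cap ATPase genes. The genes with an antioxidant response element include Psma3, at 4.68 and 4.91 FPKM, and Psmb2, at 69.7 and 15.2. A match is a description of letters and not a shown binding site.

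The cap held the lowest medians of the role groups as deposited. All 6 ATPase genes were lower in UUO urine as deposited, 5 of them by 2-fold or more, with a median of -1.50 that became -0.90 at equal sums, -0.63 by the median ratio and 1.12 at the 75th percentile. Psmc1 was the most abundant of them in WT urine, with 145 FPKM against 30.9 in UUO urine, and Psmc2 in UUO urine, with 34.8 against 74.1 in WT. Psmc3 was 125 and 34.1, and Psmc4 was 56.7 and 24.7. Psmc6 was the nearest to level, at 17.1 and 12.99.

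Psmc5 had the lowest difference of all subunit genes, -2.93, with 136 FPKM in WT against 16.9 in UUO urine. It was 8.02-fold lower, and it stayed lower at the 75th percentile scaling (-0.34). Its locus on chromosome 10 (94197139 to 94212226) holds 12 entries, one of them Smarcd2, and Psmc5 had 80.6% of its FPKM in WT but 37.5% in UUO urine. Summed over the locus, which takes in the reads of Smarcd2, the difference was -1.88.

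Of the 14 non-ATPase genes of the cap, 9 were lower by 2-fold in UUO urine as deposited, 4 were under the limit and 1 was higher. Over all number-only genes that passed the filter, 36.5% were lower and 25.7% higher. The median of -1.83 was the lowest of the role groups, which is -1.02 relative to the number-only median, but the median was 0.77 at the 75th percentile scaling. Psmd2, a large scaffold subunit, was the most abundant in WT urine, with 203 FPKM against 43.6 in UUO urine. Psmd12 had the lowest difference of the group at -2.53, with 63.3 in WT and 10.2 in UUO urine. Psmd4, a ubiquitin receptor, was the most abundant in UUO urine and was 1.99-fold lower there than in WT urine. Psmd14, the enzyme that removes ubiquitin chains, was 27.4 in WT and 16.9 in UUO urine.

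Among the remaining cap genes, Psmd1, Psmd3, Psmd8, Psmd11 and Psmd13 had differences between -1.96 and -1.81, and Psmd7 had -1.23. Psmd11 held only 40.6% of the FPKM of its locus in WT and 20.7% in UUO urine. The locus as a whole had a difference of -1.10. Psmd6 was 23.2 in WT and 14.2 in UUO urine. Psmd5 and Psmd9, which encode chaperones of cap assembly and are no part of the finished cap, differed from each other. Psmd5 was 77.5 in WT and 14.4 in UUO urine, while Psmd9 was 17.9 and 13.9.

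Psmd10, which encodes gankyrin, the other chaperone of cap assembly in this group, was the exception. The table has 0 for it in WT and 14.5 FPKM in UUO urine, which stands for 29 fragments on 1000 bases. It is 1 of only 2 subunit genes alone at their locus (chromosome 3, 52274007 to 52279025), the other being Psmb6. Of its 10 RefSeq neighbours, 5 lie on that chromosome of the table. A value of 0 can be a failed estimate in such a table, and the exact interval of a count of 0 reaches 2.002 FPKM in the WT library.

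**Figure D3:**
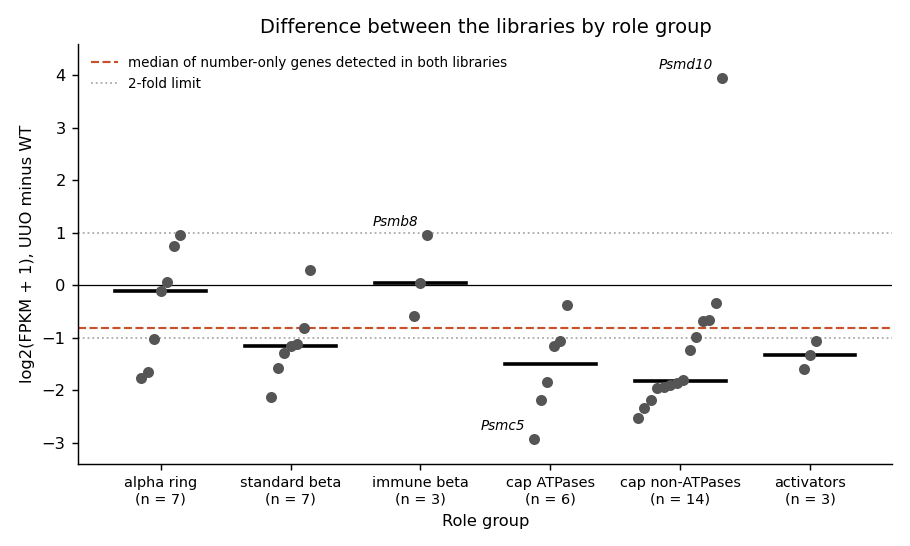
Difference of log2(FPKM + 1), UUO minus WT as deposited, for the 40 subunit genes that passed the FPKM filter, by role group. Points are genes, black bars are medians, the dashed line is the median of number-only genes detected in both libraries (-0.81) and dotted lines mark 2-fold. The immune beta and alpha ring medians lie above the dashed line and the other 4 below it. Each kept its side of the line with every rescaling, which was largely fixed in advance because 1 factor moves both. The line itself lay above 0 at the 75th percentile scaling.

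The 3 activators above 0 were lower in UUO urine as deposited, and higher at the 75th percentile scaling. Psme1, which encodes the alpha chain of the interferon-inducible activator, had 106 FPKM in WT against 34.2 in UUO urine. Psme3, of the nuclear activator, was 20.1 and 9.05, and Psme4, a large activator of another type, was 31.7 and 11.9. All 3 were past 2-fold, with a median of -1.34 as deposited and 1.23 at that scaling. As deposited, 42.8% of number-only genes detected in both libraries were lower by 2-fold. Psme1 is a known target of interferon-gamma, as are Psmb8 and Psmb9, whose differences were 0.96 and 0.05. Its partner Psme2, next to it on chromosome 15, was listed at 0 in both libraries, and the other entries of its locus summed to 0 and 2.51 FPKM.

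Relative to the number-only genes, each role group kept its side of their median with every scaling tried. This was largely fixed in advance, because a rescaling multiplies all UUO values by 1 factor. The immune beta median was above the number-only median by 0.86 as deposited and by 0.76 to 0.89 over the 4 rescalings, and the alpha ring by 0.70 and by 0.02 to 0.81. The same difference as deposited was -0.34 for the standard beta genes, -0.53 for the activators and -0.69 for the cap ATPases. These groups hold between 3 and 14 genes.

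Within each library the subunit genes were far from equal levels. Near-equal numbers in the complex hold for proteins of the standard core and the finished cap. The set used here also includes the immune beta genes, the activators and the chaperones Psmd5 and Psmd9, for which they do not. Over the 39 subunit genes detected in both, FPKM ranged from 4.68 to 278 in WT and from 4.91 to 92.1 in UUO urine, with Psma3 lowest and Psmb1 highest in both. The SD of log2(FPKM + 1) over these genes was 1.39 in WT and 0.93 in UUO urine. Across the 39 genes, the 2 libraries had a Pearson's r of 0.726 and a Spearman's rho of 0.711, given as a description since genes are not independent replicates. As shares of the subunit FPKM, the cap held 50.9% in WT and 40.2% in UUO urine, the standard core 41.9% and 50.9%, and the immune beta genes 1.59% and 3.81%. These shares do not depend on the scaling of a library.

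The subunit genes together held 0.844% of the FPKM of number-only genes in WT and 0.403% in UUO urine. Red-cell markers are part of that denominator, and Hbb alone had 877 FPKM in WT against 54777 in UUO urine. The summed FPKM of the 9 red-cell markers was 3182 and 88827. Their part in the lower share was not tested.

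Genes that serve the proteasome without being named as subunits were read from 2 lists. Of 15 assembly and regulation genes in the table, 14 reached 1 FPKM, and as deposited 7 were lower by 2-fold, 1 was higher and 6 were under the limit, with a median of -1.17. Of the 12 detected in both libraries 6 were lower, a share near the 42.8% of number-only genes detected in both. Sem1, the smallest protein of the cap lid, had the lowest difference at -2.96, with 523 FPKM in WT against 66.5 in UUO urine. Adrm1, a ubiquitin receptor of the cap, was 170.1 and 39.3, and its partner Uchl5 was 12.3 and 2.02. Ubxn7, a cofactor of the unfoldase Vcp, was 5.44 and 0.7996.

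Nfe2l1, which switches subunit genes on when the proteasome is overloaded, was 51.3 in WT and 15.6 in UUO urine. Ddi2, the protease that activates its protein, was 166 and 51.0. Nfe2l2, the related factor of the oxidative stress response, was 31.0 and 49.8. Txnl1, a thioredoxin of the cap, was 139 in WT and 34.9 in UUO urine. Psmg2, an assembly chaperone of the core, was listed at 0 in WT and at 7.67 in UUO urine, and Pomp, the maturation factor of the core, was listed at 0 in both.

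Of 15 genes of ubiquitin supply and shuttling in the table, 13 reached 1 FPKM, with 9 lower by 2-fold as deposited, 1 higher and a median of -1.23. Of the 11 detected in both libraries 8 were lower, against the same 42.8%. Uba1, the main ubiquitin-activating enzyme, was 154 in WT and 27.4 in UUO urine. Vcp, the unfoldase that delivers substrates, was 540.0 and 79.0, and its partners Ufd1 (42.2 and 11.2) and Nploc4 (39.1 and 10.1) were also lower. Ubqln2 had the lowest difference at -6.02, with 64.6 in WT and 0.0125 in UUO urine, while Ddi1 was highest, listed at 0 in WT and at 1.71 in UUO urine. The UUO value of Ubqln2 is far below the 0.497 FPKM of 1 fragment on 1000 bases. Its locus holds 3 entries among which reads are divided, so its difference is uncertain.

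Of 14 peptide presentation genes in the table, 12 reached 1 FPKM, and as deposited 3 were higher by 2-fold, 1 was lower and 8 were under the limit, with a median of 0.40. Tap1, which lies between Psmb9 and Psmb8 on chromosome 20 and carries peptides into the endoplasmic reticulum, was 5.74 in WT and 8.09 in UUO urine. B2m, the light chain of class I molecules, was 50.7 and 92.9. Irf1, a factor of interferon signalling, was 11.1 and 14.7. The 3 higher genes, RT1-A2, Tapbpl and Erap1, were each listed at 0 in WT urine, and so passed the filter through UUO urine alone. The lower one was Pdia3, at 88.2 and 37.7. Over the 9 genes detected in both libraries, 1 was lower and none higher by 2-fold, with a median of 0.13 against -0.81 for number-only genes detected in both. The difference from the subunit genes was not tested. Tap2 was listed at 0 in both libraries.

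**Figure D4:**
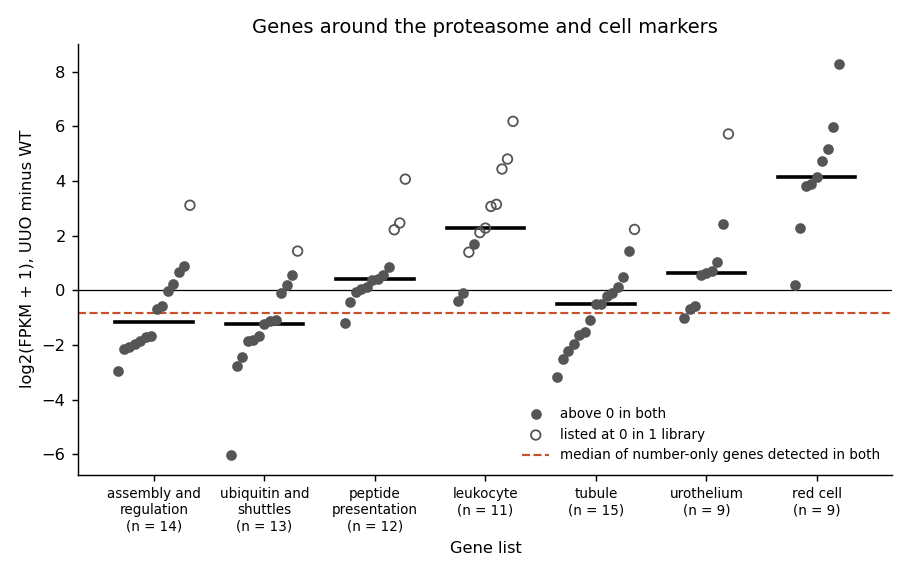
Difference of log2(FPKM + 1), UUO minus WT as deposited, for genes around the proteasome and for cell marker lists, each point a gene that passed the FPKM filter. Open points are listed at 0 in 1 library, black bars are medians and the dashed line is the median of number-only genes detected in both libraries. The medians of the assembly and ubiquitin lists (-1.17 and -1.23) lie below the line, and the peptide presentation median (0.40, or 0.13 for genes detected in both) above it, on FPKM as deposited only.

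Markers of the epithelia were lower and higher. Of the 15 tubule markers, 7 were lower by 2-fold in UUO urine and 2 were higher, and the 7 are a share near the background of 36.5% and 42.8%. The median was -0.51, with a sum of 447 FPKM in WT against 328 in UUO urine. Lrp2, of the proximal tubule, was 38.7 and 5.995, while Umod was 30.1 and 26.3. Of 9 urothelium markers, 3 were higher and 1 was lower, with a summed FPKM of 1204 and 1725. The 3 are 33.3%, against 25.7% of number-only genes and 49.2% of all features that passed. Krt5, 1 of the 3, was listed at 0 in WT urine. Of the 8 markers detected in both libraries 2 were higher and 1 lower, against 7.01% and 42.8% of such number-only genes. The part of the tubule and urothelium markers in the levels of the subunit genes was not tested.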

How the data were processed

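Urine RNA of 1 WT (sham) and 1 UUO library was analysed. Per the labels and methods, the authors aligned read pairs to build rn5 with TopHat2 2.0.9 and Bowtie2 2.0.6, assembled them with Cufflinks 2.1.1 and made 1 FPKM value per feature and library with Cuffdiff 2.1.1. FPKM values were used as the authors deposited them. The deposited table also holds the authors' log2 ratios, p-values and q-values, which were not used.

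Symbols came from RefSeq (GRCr8), which matched 16329 of 16484 number-only IDs. Of the 46 genes, 44 share their locus with other entries, among which reads are divided, so their FPKM is uncertain. FPKM steps of assembled features of 400 to 1200 bases gave normalising totals of 2111000 (WT) and 2439000 (UUO) fragments, with 97.4% and 99.7% of values within 0.1 of a whole number. The step fit was tested on simulated data. The total the authors scaled by and any use of strand are not given in the sources used here, and the few fragments of low genes limit precision.

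Python 3.11.15, pandas 2.3.3 and scipy 1.17.1 were used. No test between groups was made. Named genes are the catalytic pairs, the activators, genes listed at 0, and the extremes of each role group. Others were named after their values were seen. In the pathway lists the extremes and up to 5 genes past 2-fold in each direction were named, and further list genes and markers after their values were seen. The genes and lists were chosen with earlier results of these data known. The role groups, the step settings, the motifs, the check of neighbour genes and the alternatives built on it, on the subunit genes alone, on Psmb9 without Psmb6, on list genes detected in both libraries and on the other 75th percentile were settled after values were seen. Some genes of the related lists are not reported here. Intervals assume transcripts of 1000 bases, since transcript lengths were not used here. The alternatives were other pseudocounts, filters, limits and scalings, FPKM summed per locus, and subsets of the genes.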

Additional observations from a re-analysis of the deposited data

How the results depend on the processing

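No paired analysis was possible because 1 library stands for each condition. Without replicates, a median or pair difference counts as unchanged if its sign and its side of 1 stay. A count or share does so if it moves by less than 1.5 times. The difference of a single gene counts as unchanged if it stays under 2-fold, whatever its sign, or past 2-fold in the same direction. Psmb10, at -0.59 as deposited and 0.0116 at equal sums, was counted so. A single gene counts as turned only if it was past 2-fold as deposited. By these measures 196 of 289 recomputed values were unchanged, 69 moved and 24 turned their direction. Genes here are all 46 of the rule, of which 25 were lower and 2 higher by 2-fold as deposited, with a median of -1.14. A rescaling multiplies all UUO values by 1 factor, and for the other moves the cause was not tested.

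With equal sums 14 genes were lower and 5 higher, with medians of -0.525 (all), 0.505 (alpha ring), -0.536 (standard beta), -0.895 (cap ATPases) and -0.752 (activators). By the median ratio 9 were lower and 6 higher, with medians of -0.26 (all), 0.77 (alpha ring), -0.271 (standard beta), -0.632 (cap ATPases), -0.975 (cap non-ATPases) and -0.495 (activators). At the 75th percentile of each library's own features above 0, 0 were lower and 28 higher, with medians of 1.48 (all), 2.5 (alpha ring), 1.48 (standard beta), 2.59 (immune beta), 1.12 (cap ATPases), 0.765 (cap non-ATPases) and 1.23 (activators). There the differences turned to 0.857 for Psma1, 0.997 for Psma7, 1.07 for Psmb1, 0.461 for Psmb2, 1.35 for Psmb5, 1.51 for Psmb6, 0.437 for Psmc1, 1.56 for Psmc2, 0.441 for Psmd2, 0.025 for Psmd12, 1.03 for Psme1, 1.47 for Psme3 and 1.23 for Psme4. Psmb7 (1.82), Psmb10 (2.02), Psmc6 (2.21) and Psmd4 (1.66) were also above 0 there, from below 0 but under 2-fold as deposited. The planned wording of the 75th percentile could be read in 2 ways. The features above 0 in either library were used first, which gave 40 lower and 1 higher, and the reading was changed after that result was seen. The readings move the UUO values in opposite directions, by factors of 6.34 and 0.105.

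A pseudocount of 0.1 gave 4 higher genes, and one of 10 gave 1 higher and medians of -0.934 (all), -0.99 (standard beta) and -0.926 (activators). A 4-fold limit left 6 lower and 1 higher. With FPKM summed over each locus 5 were higher, the alpha ring median was 0.0487 and Psmc3ip turned to -2.65. The filter at 5 FPKM and the subunit genes alone each gave 1 higher, and the genes alone at their locus were 1 lower and 1 higher. Over genes detected in both libraries the leukocyte median turned from 2.28 to -0.11, and the medians of the other 6 lists kept their sign and side of 1. For the catalytic pairs only other pseudocounts, FPKM summed per locus and, for Psmb9, other standard genes were run. Their differences kept their direction there, between 1.63 and 2.37 for Psmb8 and Psmb5, and 1.01 and 1.23 for Psmb9 and its standard genes. For Psmb10 and Psmb7 they lay between 0.217 and 0.244. No counting interval was computed for a pair difference, so whether the small one differs from 0 was not tested.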
